A study of Mus musculus with 6 samples.

Results

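The choroid plexus is a sheet of secretory epithelium around a vascular core that hangs into the ventricles of the brain, and the plexus of the fourth ventricle lies directly beneath the cerebellum. Its epithelial cells carry water, salts and hormones from blood to cerebrospinal fluid through apical and basolateral channels and transporters, seal the route between cells with tight junctions, and release proteins such as transthyretin into the fluid. The 32 genes described here encode secreted, transport, receptor, junction and matrix proteins of this epithelium. They were taken as a named list of 32 out of 55487 genes in the deposited tables, and the list was chosen by the measured levels of these same 6 libraries, since it was drawn up when their reduction in KO and the spread of Ttr over the animals were already in view. Their differences between the groups are therefore given as a description, without p values. Counts of genes past a threshold, and whether a single gene was called, are given to describe the list beside all tested genes. They are no test of the list, and nothing about the group is read from them. All 32 had counts and all 32 were among the 18237 genes that passed the filter on low counts.

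RNA was sequenced from whole cerebella of male mice aged 14 days. The knockout group (KO) held 3 animals labelled Wbscr17KOKO, homozygous for a knockout allele of Galnt17, one of the transferase genes whose enzymes attach the first sugar of mucin-type O-glycans. The control group (WT) held 3 B6C3 wild types, where B6C3 stands for C57BL/6J crossed with C3H/He, and this hybrid was bred into the KO line because homozygotes on pure C57BL/6 did not survive to birth, per the labels. The allele is not restricted to a cell type, so the libraries do not separate a loss in the choroid plexus from a loss elsewhere. Each library was 1 animal. The p values below set the difference between the groups against the spread between animals within the groups. They do not separate genotype from other differences between the groups.

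Libraries held 17111611 to 29840046 counts in genes. Galnt17 itself stood at 2.41 to 3.44 CPM (reads per gene after scaling all libraries to one size) in KO and 42.8 to 46.8 CPM in WT, and the groups did not overlap. Unmapped reads made up 13.8% to 17.2% of reads in the KO libraries and 6.52% to 10.03% in the WT libraries, so this share also separated the groups, and its part in the results below was not tested. In whole tissue, fewer choroid plexus cells in a sample and less RNA of a gene in each cell cannot be told apart. Nor can reads of the 32 genes from the choroid plexus be told apart from reads of the same genes from other cells. The part of such other cells in the unequal reductions, slopes and ratios to Ttr below was not tested. The sources used here do not say how the choroid plexus was treated when the cerebella were taken out. KO replicate 1 stood apart from the other KO libraries in Ttr and in most of the 32 genes. Results that move without it are given below both ways, except the slopes on Ttr and the correlations of single genes with it.

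The 32 genes were, as a group, far lower in KO than in WT cerebella, but to very unequal degrees. At an adjusted p below 0.05 (edgeR's quasi-likelihood test, Benjamini-Hochberg adjustment over all genes), 18 were lower and 0 higher in KO, where 0.872% and 0.784% of all tested genes were lower and higher. At an unadjusted p below 0.05 there were 30 lower and 0 higher, DESeq2 called 23 lower and 0 higher, and limma-voom 17 lower and 0 higher. Over all 18237 tested genes, 1639 were lower and 1562 higher at an unadjusted p below 0.05. DESeq2 called 263 lower and 294 higher of them, and limma-voom 158 lower and 154 higher. The median log2 fold change of the 32 was -1.75, beside -0.01 over all tested genes. A difference of 2-fold or more toward lower values was seen in 23 of the 32 (1.24% of all tested genes). All 3 KO libraries lay below all 3 WT libraries in 28 genes, beside 12.2% of all tested genes, and the groups overlapped in Slc13a4, Trpv4, Krt8 and Cdkn1c. The calls rested on few animals. Of the 18 called genes, 11 kept the call without KO replicate 1, 16 without KO replicate 3, 18 without WT replicate 1 and 16 without WT replicate 3. Without KO replicate 2 only Aqp1 and Calml4 kept it, and without WT replicate 2 only Aqp1, Mfrp, Cldn1, Calml4 and Cab39l did.

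The reduction differed between the KO animals, in the same order for most of the 32 genes. Expressed as a percentage of each gene's WT mean, the median gene stood at 18.3% in KO replicate 1, 35.6% in KO replicate 2 and 46.8% in KO replicate 3. In the WT libraries the same median was 74.3%, 109% and 116%. In KO replicate 1, 12 genes were below 10% of their WT mean, and 0 were in any other library. The number below 50% was 27 in KO replicate 1, 22 in KO replicate 2 and 18 in KO replicate 3, while the WT libraries had 1, 0 and 0. The median over all tested genes stayed between 99.3% and 99.8% in all 6 libraries.

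**Figure D1:**
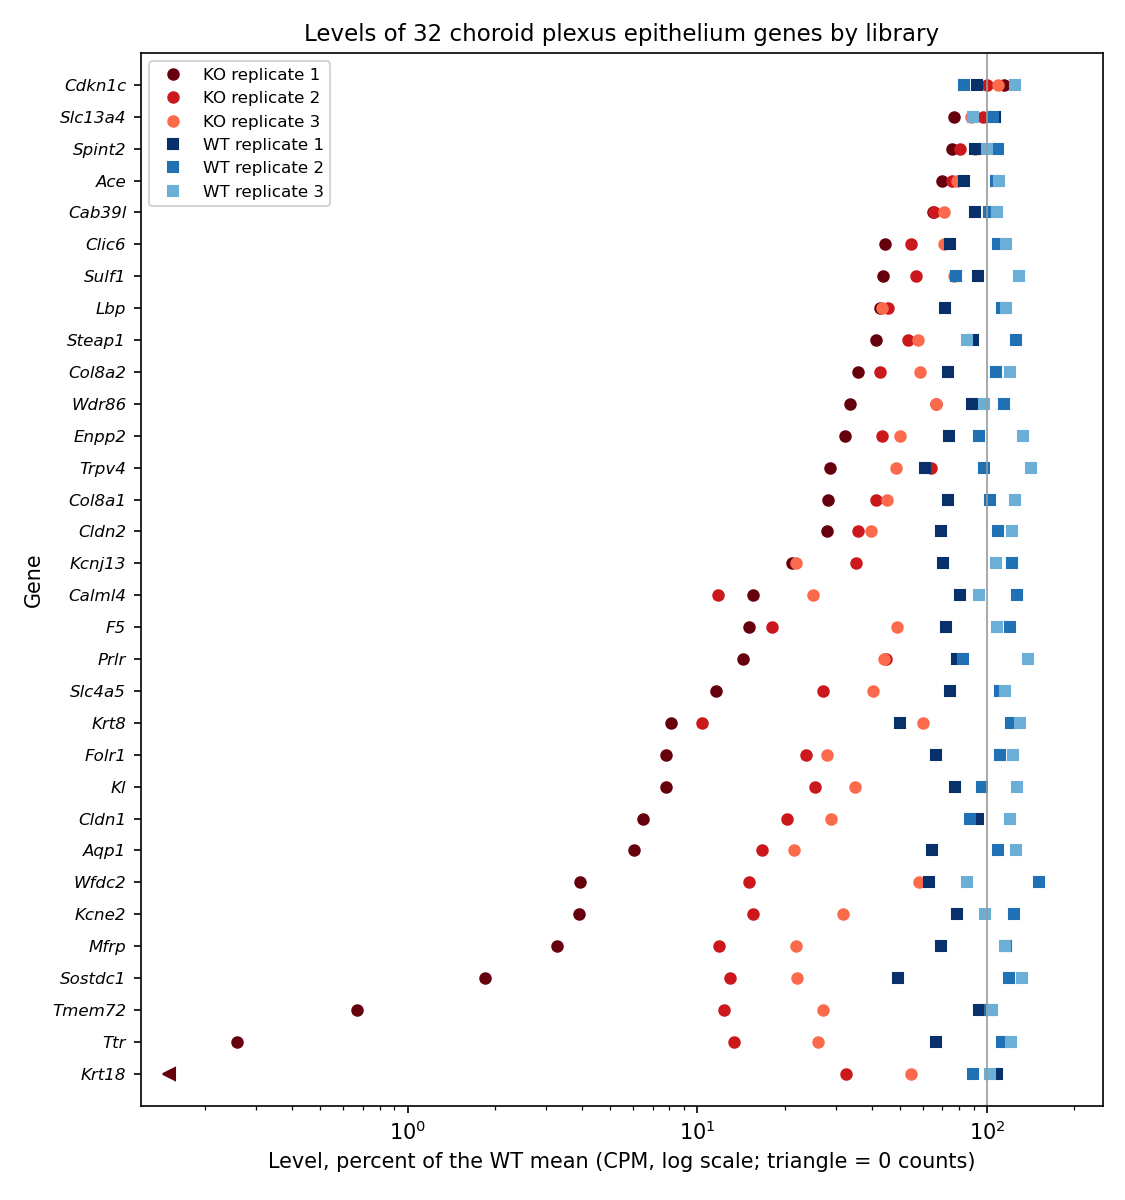
Level of each of the 32 genes in each library as a percentage of the WT mean of that gene (log axis), with 1 point per library (KO circles, WT squares), genes ordered by KO replicate 1 and a triangle for the 0 counts of Krt18. KO replicate 1 is the lowest KO library in 30 of 32 genes, and in that library Cdkn1c, Slc13a4, Spint2 and Ace keep the largest shares of their WT level.

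Secreted proteins included the most abundant transcript of the group. Ttr (ENSMUSG00000061808), which encodes transthyretin, a carrier of thyroid hormone in cerebrospinal fluid, was at 4.26 CPM in KO replicate 1. It was at 220.1 CPM in KO replicate 2 and 431 CPM in KO replicate 3, against 1096, 1861 and 1995 CPM in the WT libraries. The groups did not overlap, but on a log scale the KO libraries, with 127, 5121 and 8676 counts, were spread wider among themselves than the group means lay apart. The mean was 218 ± 213 CPM in KO and 1650 ± 485 CPM in WT (SD, n = 3 each), a log2 fold change of -2.92 (SE 0.95), and Ttr was not among the called genes. Genes without reads in 1 or more libraries were left out of a ranking by the ratio of the highest to the lowest KO library. Ttr ranked 1 of the 15880 genes that remained, which all averaged 1 CPM or more. Leaving out KO replicate 3 gave a log2 fold change of -3.89. Leaving out KO replicate 1 gave -2.34, and Ttr was then among the called genes.

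Enpp2 encodes autotaxin, a secreted enzyme that makes lysophosphatidic acid. It stood at 194, 260.2 and 302 CPM in the KO libraries and 444, 562 and 796 CPM in the WT libraries. The loss was thus much more even than that of Ttr, with KO replicate 1 at 32.4% and KO replicate 3 at 50.2% of the WT mean, and the log2 fold change was -1.25 (SE 0.20). Sostdc1, a secreted antagonist of BMP and Wnt signalling, followed Ttr more closely. Its levels were 0.235, 1.63 and 2.78 CPM in KO and 6.21, 15.1 and 16.7 CPM in WT, a log2 fold change of -3.11 (SE 0.56) that was -2.52 without KO replicate 1 and -3.83 without KO replicate 3.

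Lbp encodes lipopolysaccharide-binding protein and behaved differently from Ttr within the KO group. Its KO levels of 3.92, 4.17 and 3.97 CPM hardly differed between animals, while the WT libraries gave 6.54, 10.3 and 10.6 CPM. F5, the gene of coagulation factor V, was at 0.536, 0.645 and 1.74 CPM in KO and 2.57, 4.28 and 3.84 CPM in WT, a log2 fold change of -1.92 (SE 0.39) that was -2.58 without KO replicate 3. Wfdc2, which encodes a small secreted protein of the whey acidic protein family, had too few reads for a firm value, at 1, 3 and 10 reads in KO against 13, 22 and 15 reads in WT. In sum, 4 of the 6 secreted-protein genes were among the called genes, and Ttr and Wfdc2 were not.

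Genes of water and ion transport differed widely in how far they were reduced. Aqp1, the apical water channel of the epithelium, was at 0.67, 1.85 and 2.38 CPM in KO and 7.16, 12.1 and 14.0 CPM in WT. The highest KO library held less than the lowest WT library by a wide margin, and the log2 fold change was -2.81 (SE 0.37). Kcne2, a potassium channel beta subunit, was at 0.268, 1.07 and 2.18 CPM in KO and 5.43, 8.51 and 6.76 CPM in WT (log2 fold change -2.63, SE 0.47). It was lowest in KO replicate 1 and, without KO replicate 3, gave a log2 fold change of -3.41.

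Slc4a5, a sodium bicarbonate cotransporter, was at 1.37, 3.22 and 4.77 CPM in KO and 8.82, 13.1 and 13.6 CPM in WT (log2 fold change -1.96, SE 0.34). Kcnj13, the inwardly rectifying potassium channel Kir7.1, was at 0.335, 0.559 and 0.348 CPM in KO and 1.12, 1.94 and 1.70 CPM in WT (log2 fold change -1.91, SE 0.34). Unlike most of the group, Kcnj13 was about as low in KO replicate 3 as in KO replicate 1. Exons of Gigyf2 on the opposite strand cover 49.1% of the exonic length of Kcnj13. The counts were made without strand, so a read from the shared part cannot be assigned to one gene. Such reads may have been left out as ambiguous, so the level of Kcnj13 may be understated.

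The other 4 transport genes were not among the called genes. Slc13a4, a sulfate transporter, gave 11.2, 14.1 and 12.8 CPM in KO and 15.5, 15.3 and 13.1 CPM in WT, so the groups overlapped. Clic6, an intracellular chloride channel protein, gave 8.85, 10.8 and 14.1 CPM in KO and 14.7, 21.7 and 23.1 CPM in WT. Here KO replicate 3 lay just under WT replicate 1, and the log2 fold change was -0.83 (SE 0.19). The cation channel gene Trpv4 gave 1.17, 2.62 and 1.99 CPM in KO and 2.48, 3.99 and 5.78 CPM in WT. Steap1, of a family of metalloreductases, gave 1.14, 1.46 and 1.59 CPM in KO and 2.44, 3.46 and 2.33 CPM in WT.

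Among the receptors, Folr1, the folate receptor through which the epithelium passes folate into cerebrospinal fluid, was at 0.804, 2.45 and 2.88 CPM in KO and 6.83, 11.4 and 12.7 CPM in WT. Its log2 fold change was -2.37 (SE 0.37). Kl encodes klotho, the co-receptor of FGF23 that is also shed into the fluid, and was at 1.27, 4.17 and 5.71 CPM in KO and 12.7, 15.8 and 20.7 CPM in WT (log2 fold change -2.19, SE 0.38). Within KO both genes were lowest in replicate 1 and highest in replicate 3, as Ttr was. Mfrp, a membrane protein with a frizzled-related domain, was at 0.201, 0.731 and 1.34 CPM in KO and 4.27, 7.10 and 7.05 CPM in WT (log2 fold change -3.10, SE 0.44, and -3.77 without KO replicate 3). Other genes, C1qtnf5 on the same strand among them, share 37.9% of its exonic length. Prlr, the prolactin receptor gene, gave 0.469, 1.46 and 1.44 CPM in KO and 2.57, 2.699 and 4.52 CPM in WT, a log2 fold change of -1.58 (SE 0.39), and was the only receptor gene of the 4 that was not among the called genes.

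The tight junction genes Cldn1 and Cldn2 differed in how far they followed Ttr. Cldn1, a barrier-forming claudin, was at 0.302, 0.946 and 1.34 CPM in KO and 4.31, 4.05 and 5.54 CPM in WT (log2 fold change -2.49, SE 0.38). Cldn2, a claudin that forms cation-selective pores between epithelial cells, was at 2.38, 3.05 and 3.38 CPM in KO and 5.88, 9.27 and 10.4 CPM in WT (log2 fold change -1.54, SE 0.23). KO replicate 1 retained 6.51% of the WT mean of Cldn1 but 28.0% of that of Cldn2. Krt8 and Krt18, which encode the keratin pair of simple epithelia, were too sparse for a firm value. Krt18 gave 0, 9 and 13 reads in KO against 31, 18 and 25 reads in WT, and the 0 in KO replicate 1 allows up to 0.101 CPM (3 counts, counting error only). Krt8 gave 2, 2 and 10 reads in KO against 10, 17 and 22 reads in WT, so its groups overlapped once scaled to library size. Spint2, a membrane-bound inhibitor of serine proteases, was at 23.8, 25.3 and 28.5 CPM in KO and 28.5, 34.3 and 31.4 CPM in WT.

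Matrix genes lay between these extremes. Col8a1 and Col8a2 encode the chains of the short-chain collagen VIII. Col8a1 was at 2.68, 3.91 and 4.27 CPM in KO and 6.96, 9.68 and 11.8 CPM in WT (log2 fold change -1.40, SE 0.23). Col8a2 was at 3.89, 4.599 and 6.36 CPM in KO and 7.91, 11.6 and 12.9 CPM in WT (log2 fold change -1.14, SE 0.22). Both were lowest in KO replicate 1 and highest in KO replicate 3 within the KO group, without the near-absence that Ttr showed in KO replicate 1. Sulf1, an extracellular sulfatase of heparan sulfate, was at 6.30, 8.21 and 11.1 CPM in KO and 13.5, 11.3 and 18.6 CPM in WT and was not among the called genes.

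Of the remaining 6 genes, Tmem72 showed the steepest gradient and Cdkn1c none. Tmem72, a transmembrane protein gene, gave 2, 29 and 55 reads in KO against 227, 176 and 215 reads in WT, or 1.35 ± 1.33 against 10.1 ± 0.573 CPM. KO replicate 1 therefore held 0.666% and KO replicate 3 27.2% of the WT mean, and the log2 fold change of -3.01 (SE 0.57) was -2.35 without KO replicate 1 and -4.04 without KO replicate 3. Calml4, a calmodulin-like protein gene, was low in every KO library, at 0.737, 0.559 and 1.19 CPM against 3.81, 5.98 and 4.42 CPM in WT (log2 fold change -2.52, SE 0.29). Cab39l, a scaffold protein of the kinase LKB1, had the smallest change of the called genes, with 27.8, 28.1 and 30.3 CPM in KO and 38.8, 43.2 and 46.3 CPM in WT (log2 fold change -0.57, SE 0.08).

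Ace encodes angiotensin-converting enzyme and gave 14.4, 15.6 and 16.3 CPM in KO and 17.2, 22.2 and 22.8 CPM in WT. The WD-repeat gene Wdr86 gave 1.61, 3.18 and 3.18 CPM in KO and 4.22, 5.46 and 4.67 CPM in WT. Neither was among the called genes, although the groups did not overlap in either. Cdkn1c, the cell cycle inhibitor p57, was the single gene of the 32 whose log2 fold change was positive (0.10, SE 0.17), with 6.20, 5.42 and 5.91 CPM in KO and 5.01, 4.52 and 6.76 CPM in WT. Gm44732 on the opposite strand shares 30.7% of its exonic length, and with the sum of the strand-specific counts the log2 fold change of Cdkn1c was -0.13.

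Per kilobase of exon, transcripts differed over several orders of magnitude in WT. Ttr stood at 1392 CPM per kb and Enpp2 at 104 CPM per kb. The other 30 genes lay between 0.213 CPM per kb for Prlr and 7.10 CPM per kb for Sostdc1. The summed CPM of the group was therefore mostly Ttr and Enpp2, at 321, 632 and 909 CPM in KO and 1787, 2745 and 3136 CPM in WT. Without these 2 genes the sum was 123, 152 and 176 CPM in KO and 247, 322 and 345 CPM in WT, again without overlap.

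Genes of like level were reduced to different degrees. Spint2 and Cab39l, at 6.89 and 6.25 CPM per kb in WT, were close to the WT per-kb level of Sostdc1, yet KO replicate 1 retained 75.7% and 65.1% of their WT means and 1.85% of that of Sostdc1. Clic6 and Folr1, at 5.07 and 4.48 CPM per kb in WT, retained 44.5% and 7.81% in the same library.

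Because the loss was graded over animals, each gene was compared with Ttr within the groups. Taken as deviations of log2 CPM from the group mean over 6 libraries, the correlation with Ttr had a median of 0.71 over the other 31 genes, beside 0.00 over all tested genes, and ranged from -0.16 for Cdkn1c to 0.99 for Tmem72. The points share libraries, depth and scaling, so the values describe these 6 samples only. A correlation above 0.9 was reached by 12 genes, and by 1.12% of all tested genes. The slope on Ttr separated genes more clearly than the correlation, since it gives the log2 change of a gene for each log2 unit of Ttr. It had a median of 0.16 and was highest for Krt18 (0.79), a value set in part by the 0.5 counts added to its 0 in KO replicate 1. Next it reached 0.72 for Tmem72, 0.53 for Sostdc1, 0.44 for Wfdc2, 0.41 for Kcne2 and 0.38 for Mfrp. In 13 genes it was at least 0.25, against 0.203% of all tested genes. The slope was 0.10 for Enpp2, 0.02 for Cab39l, 0.02 for Lbp and -0.01 for Cdkn1c. All slopes rest largely on KO replicate 1, where Ttr was at 4.26 CPM against 220.1 and 431 CPM in the other KO libraries. They are not given without that library. A low slope therefore does not show that a gene failed to move with Ttr over the other libraries.

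The order of the animals restates the same values without using distances, so it adds no separate evidence. The KO libraries stood in the order of Ttr in 23 of the other 31 genes, where 18.5% of all tested genes had that order. The WT libraries did so in 17 (19.7% of all tested genes), and both groups did in 14 (3.39%). KO replicate 1 was the lowest KO library in 30 of 32 genes and WT replicate 1 the lowest WT library in 26, beside 33.8% and 36.7% of all tested genes. Within-group variation was thus not limited to KO. In the 28 genes with a mean of at least 1 CPM, the ratio of the highest to the lowest library had a median of 2.06 in KO and 1.63 in WT, where all genes of that level had 1.10 and 1.18.

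**Figure D2:**
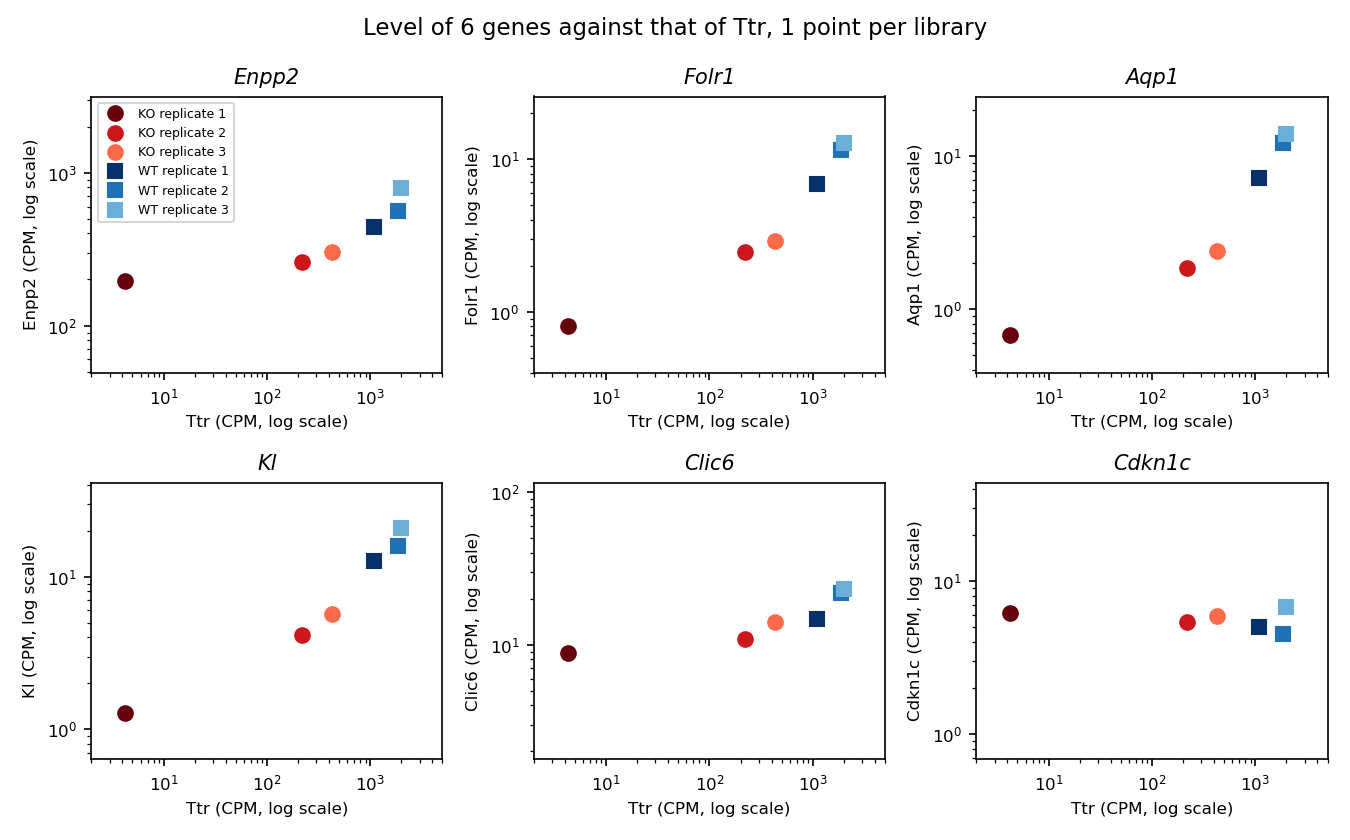
CPM of Enpp2, Folr1, Aqp1, Kl, Clic6 and Cdkn1c against the CPM of Ttr (both axes log), with 1 point per library (KO circles, WT squares). Folr1, Aqp1 and Kl are far lower in KO replicate 1 than in the other KO libraries, Enpp2 and Clic6 only moderately so, and Cdkn1c is level over the whole range of Ttr.

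Dividing each gene by Ttr shows whether the group kept its proportions in the whole tissue, reads from any other cells included. In WT it largely did. The log2 ratio to Ttr varied over the WT libraries by a median of 0.48, less than the median of 0.92 over all tested genes, and by at most 0.5 in 16 of 31 genes. The most constant ratios were those of Folr1 (-7.32, -7.35 and -7.29 in the WT libraries), Aqp1 (-7.25, -7.26 and -7.15), Cldn2 and Mfrp, with WT ranges of 0.06, 0.10, 0.11 and 0.14. Slc13a4 had the widest WT range, 1.11.

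In KO the measured proportions held for part of the group in replicates 2 and 3 and for none of it in replicate 1, where some genes had very few counts. In KO replicate 3, 10 of 31 genes lay within 0.5 of their WT ratio on the log2 scale and 18 within 1. Those 10 were Sostdc1, Aqp1, Kcne2, Kcnj13, Folr1, Kl, Mfrp, Cldn1, Tmem72 and Calml4. In KO replicate 2 there were 9 within 0.5 and 12 within 1, and Sostdc1, Aqp1, Kcne2, Mfrp, Tmem72 and Calml4 were within 0.5 in both libraries. These genes, a water channel, a potassium channel subunit and membrane and secreted proteins of the epithelium, were thus reduced about as much as Ttr in those 2 animals. The median gene stood 1.43 above its WT ratio in KO replicate 2 and 0.90 above it in KO replicate 3, and Cdkn1c, at 2.88 and 2.03, was farthest above it in both.

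In KO replicate 1 the median gene stood 6.39 above its WT ratio, and every gene lay at least 1.64 above it. The closest were Tmem72 (1.64), Krt18 (2.38, from 0 counts with 0.5 added), Sostdc1 (3.01), Mfrp (3.76) and Kcne2 (3.97). Aqp1 and Folr1, whose ratios to Ttr barely moved over the WT libraries, lay 4.58 and 4.94 above, and Enpp2 6.96 above. So in this animal Ttr was reduced more than most of the other genes. Its reduction cannot be ranked against that of Krt18, which had 0 counts there. Counting error also prevents a firm ranking against Tmem72 and Wfdc2, which had 2 and 1 counts there. The KO minus WT difference of the ratio had a median of 2.79 over the 31 genes, and leaving out KO replicate 1 brought it to 1.17. With the summed CPM of the genes other than Ttr and Enpp2 as the reference in place of Ttr, the median difference was -0.62, which is to say that most single genes were reduced more than that sum.

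**Figure D3:**
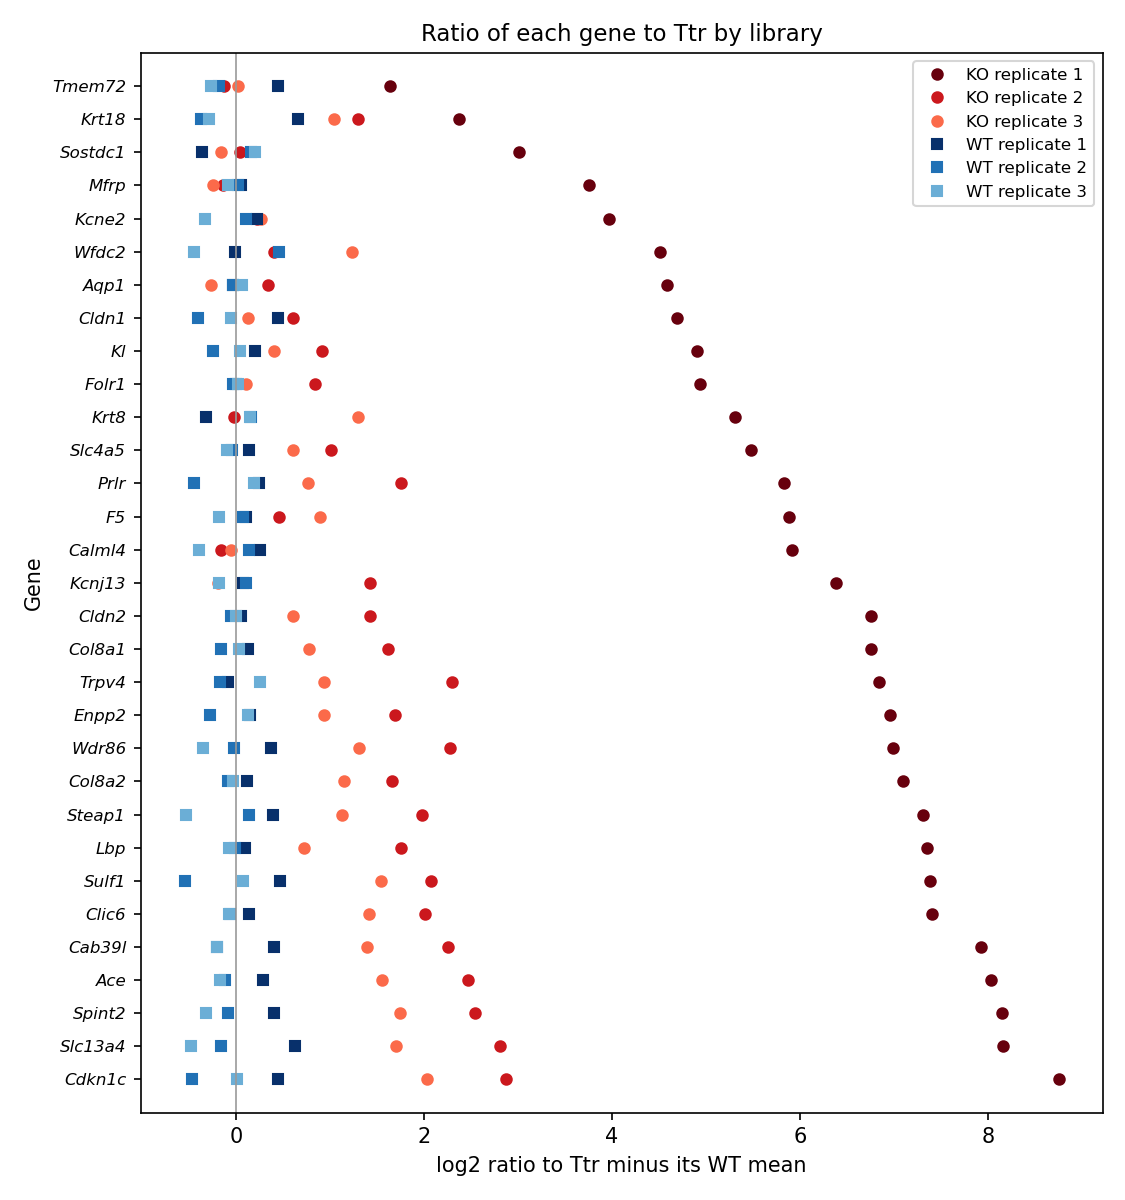
Log2 ratio of each gene to Ttr in each library, less its mean over the WT libraries, for 31 genes ordered by KO replicate 1 (KO circles, WT squares), with 0 marking the WT proportion. KO replicates 2 and 3 have medians of 1.43 and 0.90, while all 31 genes of KO replicate 1 lie at 1.64 or more.

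The sequence before the transcription starts was searched in the 32 genes, whether or not they moved with Ttr. RefSeq promoters (GRCm38.p6) were in the table used for 24 of the 32 genes, with 30 start sites. Ttr, Enpp2, Sostdc1, Lbp, Folr1, Sulf1, Clic6 and Cdkn1c were missing from it. The 250 bases before each start were searched on both strands for letters of factor families known from choroid plexus and ciliated epithelium. The letters TAATCC of OTX factors were in the promoters of Mfrp and Ace, 6.67% of the 30, and in 6.25% of all 32851 promoters. GTTGCC, part of the RFX motif, was in those of Aqp1, Kcne2 and Steap1, 10% against 10.4%. TAATTA, read by many homeodomain factors, was in that of Cldn1 (3.33% against 4.84%), and the forkhead letters TGTTTAC in 1 promoter of Prlr (3.33% against 3.17%). The shares were close to those of all promoters, and a match of letters is no evidence of binding. The sequences below are those of 4 strongly reduced genes that held a match, shown from 250 to 51 bases before the start, 5′ to 3′ on the gene's strand, with the match, on either strand, in capitals. They are, for Aqp1, chr6:55336049-55336248 on the plus strand, for Kcne2 (the first of its 2 starts) chr16:92292139-92292338 on the plus strand, for Mfrp chr9:44101520-44101719 on the plus strand and for Cldn1 chr16:26371890-26372089 on the minus strand.
Aqp1: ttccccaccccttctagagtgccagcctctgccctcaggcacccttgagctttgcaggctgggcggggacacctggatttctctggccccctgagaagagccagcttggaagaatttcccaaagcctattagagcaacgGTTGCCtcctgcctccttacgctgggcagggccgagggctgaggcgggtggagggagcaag
Kcne2: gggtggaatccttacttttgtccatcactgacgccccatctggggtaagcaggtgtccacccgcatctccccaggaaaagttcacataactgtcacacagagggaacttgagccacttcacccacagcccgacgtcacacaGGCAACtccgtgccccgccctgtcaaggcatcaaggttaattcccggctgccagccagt
Mfrp: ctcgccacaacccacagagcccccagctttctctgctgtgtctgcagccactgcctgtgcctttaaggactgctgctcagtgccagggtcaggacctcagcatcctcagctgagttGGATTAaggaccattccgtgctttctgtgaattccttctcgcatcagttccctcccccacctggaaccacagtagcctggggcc
Cldn1: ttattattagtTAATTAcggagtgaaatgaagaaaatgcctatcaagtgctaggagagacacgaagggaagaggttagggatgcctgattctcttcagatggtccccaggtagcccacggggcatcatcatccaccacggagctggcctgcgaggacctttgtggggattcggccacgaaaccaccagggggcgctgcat

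The wider set of choroid plexus genes moved much less than the 32. Lists of 51 other genes, made up for this comparison from general knowledge of the tissue, had 50 tested genes, of which 7 were lower and 0 higher in KO by edgeR's test. At an unadjusted p below 0.05 there were 14 lower and 3 higher, DESeq2 called 8 lower and 0 higher, and limma-voom 5 lower and 0 higher. The shares and counts over all tested genes are those given above beside the 32. Their median log2 fold change was -0.11, beside -0.01 over all tested genes and -1.75 over the 32. Several of these 51 genes are also expressed by other cells of the cerebellum. Gdf7, the gene that was not tested, gave 2, 3 and 4 reads in KO against 8, 12 and 19 reads in WT.

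Of 12 genes of fluid and ion transport, 1 was lower. Car12, a membrane-bound carbonic anhydrase, was at 0.905, 2.36 and 3.92 CPM in KO and 6.79, 10.2 and 12.5 CPM in WT (a log2 difference of -2.08 with SE 0.40, edgeR adjusted p = 0.0325). It took the order of Ttr in both groups, and its adjusted p was 0.0544 without KO replicate 1, 0.156 without KO replicate 2 and 0.123 without WT replicate 2. Slc12a2, the sodium-potassium-chloride cotransporter NKCC1, was at 165 ± 2.59 against 149 ± 7.98 CPM (adjusted p = 0.227). Car14, another membrane carbonic anhydrase, was at 6.91 ± 0.573 against 8.71 ± 0.318 CPM (adjusted p = 0.191). Neither passed the test, nor did Car2, the cytosolic carbonic anhydrase, at 104 ± 3.04 against 112 ± 8.53 CPM (adjusted p = 0.349).

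Among 19 genes of nutrient and hormone handling, 3 were lower. Igfbp2, a secreted carrier of insulin-like growth factors, was at 48.0 ± 5.24 against 91.2 ± 21.2 CPM (a log2 difference of -0.93 with SE 0.15, edgeR adjusted p = 0.0133). Htr2c, the serotonin receptor typical of choroid plexus, was at 10.9 ± 1.58 against 28.7 ± 13.2 CPM (a log2 difference of -1.40 with SE 0.27, edgeR adjusted p = 0.033). The copper transporter gene Slc31a1 was at 65.8 ± 2.58 against 82.6 ± 4.57 CPM (a log2 difference of -0.33 with SE 0.06, edgeR adjusted p = 0.0242). These calls did not withstand the loss of single animals. Without KO replicate 1 the adjusted p values of Igfbp2, Htr2c and Slc31a1 were 0.0777, 0.164 and 0.152, without KO replicate 3 they were 0.0658, 0.105 and 0.125, and without WT replicate 2 they were 0.082, 0.091 and 0.103. Without KO replicate 2, Htr2c was at 0.14 and Slc31a1 at 0.0952.

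Of 9 tested genes of choroid plexus identity and patterning, 3 were lower. Msx1, a homeobox factor of the dorsal midline from which the plexus forms, was at 5.01 ± 0.869 against 11.9 ± 1.82 CPM (a log2 difference of -1.25 with SE 0.17, edgeR adjusted p = 0.00463). It was the only gene of the 7 that passed whichever library was left out, with adjusted p values between 0.000769 and 0.0338. Ecrg4, which encodes a secreted peptide precursor of the epithelium, was at 3.15, 6.88 and 8.39 CPM in KO and 18.1, 27.2 and 28.1 CPM in WT (a log2 difference of -2.02 with SE 0.29, edgeR adjusted p = 0.00674, and 0.0523 without WT replicate 2). Like Car12, it had the order of Ttr in both groups. Lmx1a, a LIM homeobox factor of the roof plate, was at 1.20 ± 0.113 against 2.66 ± 0.551 CPM (a log2 difference of -1.14 with SE 0.23, edgeR adjusted p = 0.0421). Its call was kept only without WT replicate 1, and its adjusted p without each other library lay between 0.0826 and 0.203. Trpm3, a cation channel gene, was at 190 ± 14.7 against 212 ± 11.8 CPM (adjusted p = 0.257) and Otx2, the homeobox factor that specifies the tissue, at 30.1 ± 1.91 against 31.4 ± 2.30 CPM (adjusted p = 0.724).

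None of the 10 further epithelial junction genes passed (0 by limma-voom, 1 lower by DESeq2, and 2 lower and 1 higher at an unadjusted p below 0.05). The membrane linker gene Ezr was at 44.9 ± 1.26 against 58.0 ± 7.88 CPM (edgeR adjusted p = 0.0768). Epcam, an epithelial adhesion gene, was at 0.703 ± 0.128 against 1.64 ± 0.597 CPM (adjusted p = 0.112). Cdh1, the gene of E-cadherin, had its KO values on the other side of WT, at 8.67 ± 0.279 against 6.23 ± 0.778 CPM (adjusted p = 0.106).

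**Figure D4:**
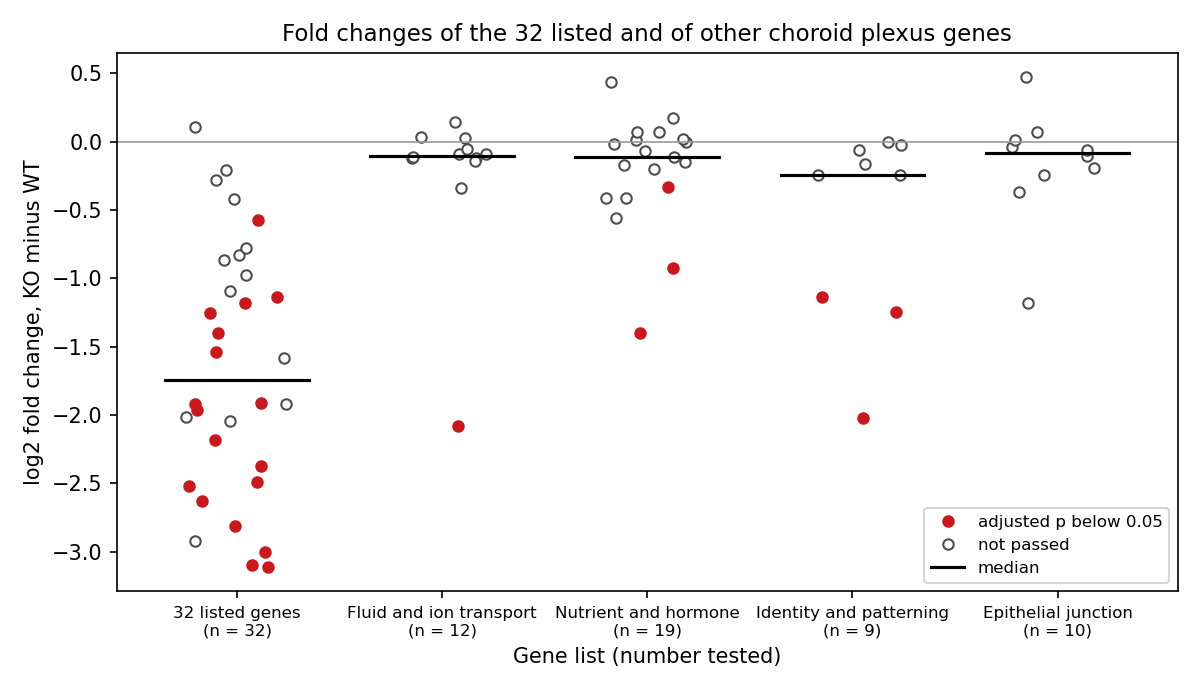
Log2 fold change, KO minus WT, of each tested gene among the 32 and in the 4 lists of other choroid plexus genes, with 1 point per gene, called genes filled and lines at the medians. The 32 genes have a median of -1.75, and the called genes of the other lists stand apart from medians near 0.

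Outside the 32, few genes shared the gradient of Ttr. Only 6 protein-coding genes with a mean of at least 1 CPM had a within-group slope on Ttr of 0.25 or more over the 6 libraries. Prr32, a proline-rich protein gene, came closest, with a correlation of 0.99, a slope of 0.85 and 0, 0.301 and 1.04 CPM in KO against 1.45, 3.11 and 2.48 CPM in WT. Car12 followed with a correlation of 0.94 and a slope of 0.30. The others were the immediate early genes Fos (0.93 and 0.32) and Fosb (0.72 and 0.27), the zinc finger gene Gm15446 (0.59 and 0.56) and the photoreceptor cadherin gene Cdhr1 (0.56 and 0.32). Within KO, Gm15446 and Cdhr1 were high only in replicate 3 and did not show the gradient of Ttr. Gm15446 was at 0.302, 0.301 and 19.6 CPM in KO and 37.9, 21.4 and 27.9 CPM in WT. Cdhr1 was at 0.503, 0.559 and 3.82 CPM in KO and 0.58, 0.645 and 2.87 CPM in WT. Fos did not separate the groups, with 6.47, 15.6 and 33.6 CPM in KO and 19.0, 22.9 and 30.7 CPM in WT.

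Markers of neighbouring tissue were read beside the 32 genes. The summed CPM of 10 genes of ciliated ependyma, the lining of the ventricles, was 21.2 to 27.7 in KO and 23.2 to 35.3 in WT, and 0 of 9 tested genes passed (3 lower at an unadjusted p below 0.05, and 0 by DESeq2 and limma-voom). Meningeal fibroblast genes summed to 532 to 739 CPM in KO and 435 to 574 CPM in WT, with 0 of 12 passing in edgeR, DESeq2 and limma-voom and 3 higher at an unadjusted p below 0.05. Much of this sum came from a single gene of the list, so it does not describe the 12 genes alike. Endothelial and mural genes overlapped, at 361 to 365 and 349 to 423 CPM, with 0 of 10 passing in edgeR and limma-voom, 1 lower by DESeq2 and 1 lower at an unadjusted p below 0.05. Macrophage and microglia genes did too, at 110 to 118 and 108 to 131 CPM, with 0 of 10 passing by each of the 3 tools and 1 lower at an unadjusted p below 0.05.

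Plvap, a diaphragm protein of the fenestrated capillaries that supply the choroid plexus, was lower in KO. It stood at 9.08, 8.51 and 8.84 CPM in KO and 13.9, 13.8 and 16.2 CPM in WT (a log2 difference of -0.73 with SE 0.11, edgeR adjusted p = 0.0076, and 0.0682 without KO replicate 2). Unlike Ttr, it hardly differed between KO replicate 1 and the other KO libraries. Of the 3 fenestrated endothelium genes 2 were tested, and the list summed to 25.7 to 26.3 CPM in KO and 30.04 to 33.8 CPM in WT. The other tested gene, Nr2f2, stood at 17 CPM in KO and 16.2 CPM in WT (edgeR adjusted p = 0.797), so the lower sum came mostly from Plvap.

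The 10 brainstem genes, markers of tissue that borders the same ventricle, also separated the groups. Their sum was 29.8, 31.8 and 34.6 CPM in KO and 38.8, 50.4 and 59.0 CPM in WT, which is the order of Ttr in both groups. Single genes did not share that order throughout. Slc6a5 stood at 33.1, 44.1 and 41.9 CPM in WT, and WT replicate 3 was highest in the sum through Tph2 (1.57, 1.47 and 6.61 CPM in WT) and the untested Dbh and Slc18a3 (2.72 and 1.51 CPM in WT replicate 3). Th lay the other way, at 4.36 CPM in KO and 3.38 CPM in WT. Only 3 of the 10 genes were tested, 5 were at 0 in at least 1 library, and Hoxb3 was at 0 in all KO libraries. The sum was mostly Slc6a5, the glycine transporter of inhibitory neurons, at 26.1 ± 1.99 against 39.7 ± 5.82 CPM (a log2 difference of -0.60 with SE 0.11, edgeR adjusted p = 0.0225). Its adjusted p was above 0.05 without any 1 of the KO libraries (0.0568 to 0.127) and without WT replicate 2 (0.106). The part that Plvap, the brainstem genes or the amount of ventricular tissue in a sample had in the values of the 32 genes was not tested.

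On the lists of the cerebellum's own cells, 0 genes were called lower in KO by edgeR, DESeq2 or limma-voom or had an unadjusted p below 0.05 in that direction. Granule cell genes summed to 6180 to 6301 CPM in KO and 5798 to 6359 CPM in WT, with 0 of 10 passing in edgeR and limma-voom, 1 higher by DESeq2 and 1 higher at an unadjusted p below 0.05. Purkinje cell genes were at 5881 to 6167 and 4896 to 5279 CPM, and 2 of 10, Pcp2 and Car8, were called higher (5 by DESeq2, 3 by limma-voom and 6 at an unadjusted p below 0.05). Pcp2 lost the call without KO replicate 1, 2 or 3 (edgeR adjusted p = 0.07, 0.171 and 0.125), and Car8 lost it without those libraries (0.13, 0.189 and 0.164) and without WT replicate 2 (0.134). Oligodendrocyte genes were at 14157 to 14850 and 12839 to 12960 CPM, and 3 of 10, Ermn, Cldn11 and Gjc3, were called higher (6 by DESeq2, 3 by limma-voom and 8 at an unadjusted p below 0.05). Ermn and Gjc3 lost the call without KO replicate 2 (edgeR adjusted p = 0.0557 and 0.0606), and Cldn11 lost it without KO replicate 1, 2 or 3 (0.164, 0.187 and 0.103) or WT replicate 2 (0.0967). Red blood cell genes were at 199 to 221 and 209 to 238 CPM, and 1 of 5, Hba-a1, was called lower, at 56.5 against 81.7 CPM. Its near-identical copy Hba-a2 lay the other way, at 17.04 against 10.8 CPM (edgeR adjusted p = 0.252), and reads of the copies may have been split between them, so the value of Hba-a1 is uncertain.

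**Figure D5:**
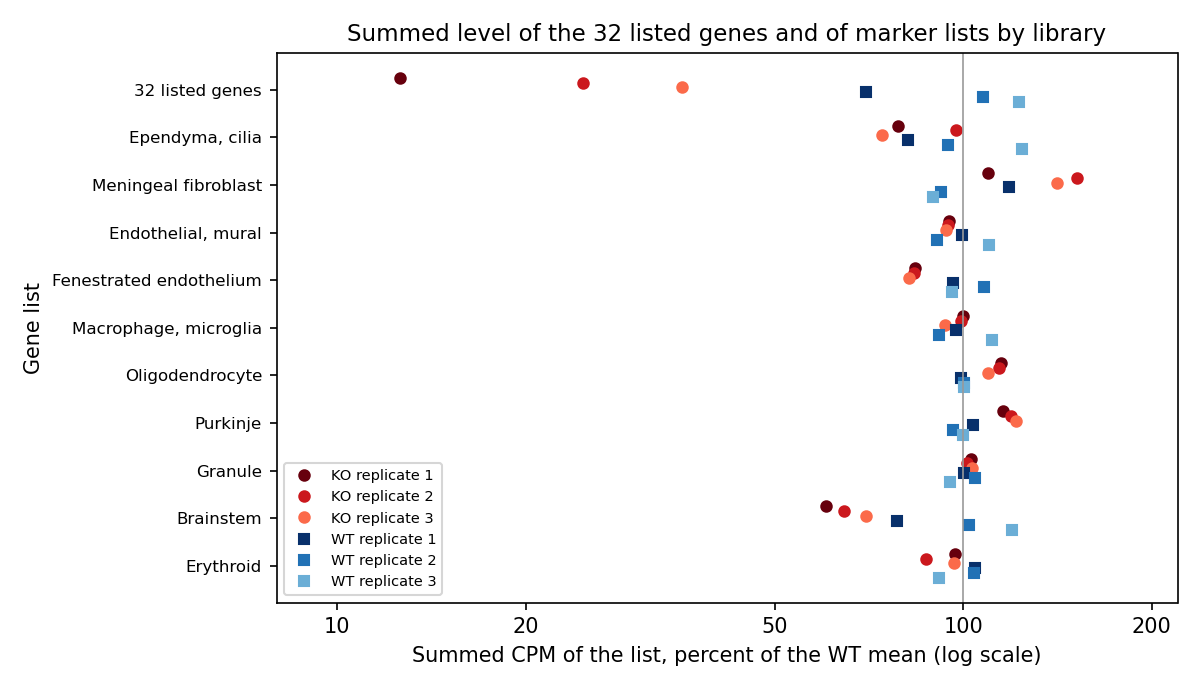
Summed CPM of the 32 genes and of each marker list in each library as a percentage of the WT mean of that sum (log axis; KO circles, WT squares). The sum of the 32 genes lies far below WT in all 3 KO libraries, those of the brainstem list (mostly Slc6a5) and the fenestrated endothelium list (mostly through Plvap) lie below WT by less, those of oligodendrocytes and Purkinje cells lie above it, and the others overlap WT.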

How the data were processed

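The authors deposited 1 table of whole-number read counts per gene for each of 6 libraries. Per the labels' protocols the libraries were made with TruSeq kits and sequenced as paired reads of 150 bases. The counts were made with STAR 2.7.5a on mm10/GRCm38, per the submitters' processing notes, which also name edgeR 3.12. The sources used here do not give the counting options. Of the 3 deposited count columns the one without strand was used, since the first strand column held 49.9% to 50.0% of strand counts. The 4 summary lines of each table were left out of library sizes. They held unmapped (6.52% to 17.2%), multimapping (3.72% to 4.29%), unassigned (6.94% to 9.30%) and ambiguous reads (3.95% to 4.44%). Intervals and limits from counts cover counting error only, since no molecular identifiers are named.

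Groups came from the strain label. Replicates were numbered in accession order only as names, and the labels pair no animals. Symbols came from the GENCODE mouse annotation (release 21, GRCm38), which matched 55227 identifiers (99.5%).

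All 18237 genes that passed edgeR's default filter (minimum count 10, minimum total 15) were fitted in R 4.3.3 by the quasi-likelihood F test of edgeR 4.0.16, which is two-sided, after TMM scaling, and a gene was called at a Benjamini-Hochberg adjusted p below 0.05. SEs of log2 fold changes were derived from the F statistic. CPM were TMM-scaled. Correlations, slopes and ratios to Ttr used log2 values with 0.5 counts added. The alternatives were edgeR's RLE size factors, DESeq2 1.42.0, limma-voom (limma 3.58.1), no filter, the sum of the strand columns, 2 counts added, another reference than Ttr, CPM without TMM scaling and each library left out. On simulated data with 200 of 18237 genes changed, the test for KO against WT recovered 56%, 92%, 98% and 100% of genes changed 1.5, 2, 4 and 8-fold, with 9 false calls. The changed genes averaged 1 CPM or more and had the same change in each KO library. These shares therefore do not carry over to genes as uneven within KO as Ttr.

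The 32 genes, the marker lists and the rules were chosen with earlier results of these data known. Named genes are the 32, Galnt17, up to 4 genes with the smallest p of each other list (all called genes where 5 or fewer were called), and up to 10 protein-coding genes with at least 1 CPM, a slope on Ttr of at least 0.25 and the highest correlation with it. Only 6 genes met this last rule. The result of 1 gene that the rule names is not reported here. Otx2, Gdf7, Hoxb3, Dbh and Slc18a3 were named after their values were seen.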

Additional observations from a re-analysis of the deposited data

How the results depend on the processing

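No paired analysis was possible because the labels give the groups no shared replicate numbers. Over all genes, 159 lower and 143 higher calls became 263 and 294 with DESeq2, 820 and 803 without the filter on low counts, and 53 to 962 and 28 to 959 with 1 library left out. Of the 32 genes, 18 were lower. This became 30 without the filter and 2 to 26 with 1 library left out, and 0 were higher under each of these settings. The 51 other choroid plexus genes gave 7 lower calls, 12 without the filter and 1 to 11 with 1 library left out. Their 0 higher calls became 1 without the filter and 0 to 1 with 1 library left out, the 1 arising without WT replicate 1. The median difference in the ratio to Ttr was 2.79. It was -0.62 against the summed reference and 1.17 to 3.91 with 1 library left out. The median correlation with Ttr was 0.71 and ranged from 0.70 to 0.89 with 1 library left out. Of 349 log2 fold changes of the 32 genes under alternatives, 347 kept their sign, 42 lost and 27 gained a call. The 2 with the other sign were of Cdkn1c, at -0.13 with the strand sum and -0.0011 without WT replicate 2, the lowest value with 1 library left out (highest 0.29). The causes were not tested. Log2 fold changes that moved by over 1.5 times without KO replicate 3 and were not given above were those of Wfdc2 (-2.05 to -3.36), Krt8 (-2.02 to -3.33) and Krt18 (-1.92 to -2.74). Without KO replicate 1 Wfdc2 was at -1.44 and Krt18 at -1.21. Depth limits Wfdc2, Krt8 and Krt18, whose largest library held 22 to 31 counts.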
